A study of Homo sapiens with 36 samples.

Results

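The genes described here are 46 interferon-stimulated genes of the human endothelial line EA.hy926, followed by RNA sequencing in cells that had been given the perfluoroalkyl acid PFOA (perfluorooctanoic acid), a persistent pollutant. The members were named individually as well-known targets of type I interferon and looked up in the deposited tables by gene symbol. All 46 were found among the 18048 genes that carry values, 45 by their symbol and 1, DDX58, under its present symbol RIGI. A mean of at least 10 scaled reads within a table was required for testing, and 42 members reached it at 48 h, 42 at 6 weeks and 46 at 12 weeks.

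The study had 36 libraries in 12 groups of 3 biological replicates, all from the same line. At 48 h, cells received 1, 10 or 100 µM PFOA, against 0.05% DMSO as vehicle. At 6 weeks and again at 12 weeks of continuous exposure, cells received 1, 10 or 100 nM PFOA, against 0.05% DMSO. Cells of the 48 h groups were lysed in the dish, whereas the long-exposed cells were harvested at a passage. EA.hy926 is a hybrid of umbilical vein endothelial cells with a lung carcinoma line, so it carries endothelial and epithelial transcripts together and stands for 1 immortal line rather than for endothelium of several donors. No interferon was added in any group that the labels describe.

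Interferon-stimulated genes are switched on when a type I or type III interferon binds its receptor and the kinases JAK1 and TYK2 phosphorylate STAT proteins. With IRF9 these form a complex that binds a DNA element, the interferon-stimulated response element, in the promoters of the target genes. The products block viral entry, translation, replication and release, present antigen, or feed back on the pathway. Endothelial cells express many of these genes at a basal level, and viral RNA or cytosolic DNA can raise them through the cells' own interferon.

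Promoters of many members, but not of all, held a core of this element, which the choice of genes did not use directly. The members were chosen as known interferon targets, so the matches are not independent of that choice. A core of the element, GAAA followed by any 2 bases and GAAA again (TTTC, any 2 bases and TTTC on the other strand), was searched on both strands, with overlapping matches counted, in RefSeq windows of 250 bases before to 50 bases after the gene start on GRCh38.p14. It lay in 31 of 49 windows of the members (63.3%), compared with 1255 of all 35116 windows (3.57%). By gene, 26 of the 37 members with a window held a match and 11 did not, which says only that these letters are not in those windows. The 250 bases before the start are printed for 5 members that appear in the comparisons that follow, 4 whose windows hold a match, shown in capitals, and 1, IFI35, whose window holds none. They are ISG15 (chr1:1013247-1013496, plus strand), IFI6 (chr1:27672193-27672442, minus strand), IFI27 (chr14:94110486-94110735, plus strand), IFI44L (chr1:78620198-78620447, plus strand) and IFI35 (chr17:43006534-43006783, plus strand), each read 5′ to 3′ along the gene.
ISG15: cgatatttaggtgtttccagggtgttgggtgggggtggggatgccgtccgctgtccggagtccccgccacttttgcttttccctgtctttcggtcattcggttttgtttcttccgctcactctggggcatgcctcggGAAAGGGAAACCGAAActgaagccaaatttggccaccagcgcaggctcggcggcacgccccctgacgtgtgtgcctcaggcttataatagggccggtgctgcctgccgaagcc
IFI6: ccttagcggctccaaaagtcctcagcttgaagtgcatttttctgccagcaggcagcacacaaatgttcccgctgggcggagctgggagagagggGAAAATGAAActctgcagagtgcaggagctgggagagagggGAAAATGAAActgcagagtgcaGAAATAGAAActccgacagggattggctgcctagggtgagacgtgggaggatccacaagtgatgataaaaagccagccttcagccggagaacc
IFI27: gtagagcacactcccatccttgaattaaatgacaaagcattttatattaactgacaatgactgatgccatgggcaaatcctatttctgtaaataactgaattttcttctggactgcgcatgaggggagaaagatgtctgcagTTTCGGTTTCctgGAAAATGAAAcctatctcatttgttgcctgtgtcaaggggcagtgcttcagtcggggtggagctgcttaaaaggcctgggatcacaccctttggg
IFI44L: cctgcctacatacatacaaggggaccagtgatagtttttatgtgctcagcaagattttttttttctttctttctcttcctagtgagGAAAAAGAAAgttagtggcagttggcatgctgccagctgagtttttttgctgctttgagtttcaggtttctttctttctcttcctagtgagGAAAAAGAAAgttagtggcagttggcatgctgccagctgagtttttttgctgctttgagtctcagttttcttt
IFI35: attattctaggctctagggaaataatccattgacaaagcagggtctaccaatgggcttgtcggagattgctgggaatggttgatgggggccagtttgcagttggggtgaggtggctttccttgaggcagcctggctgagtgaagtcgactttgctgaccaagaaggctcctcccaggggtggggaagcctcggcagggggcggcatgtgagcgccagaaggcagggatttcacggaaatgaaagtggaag
The ISG15 promoter held 2 overlapping matches, that of IFI6 3, those of IFI27 and IFI44L 2 each, and that of IFI35 none. In IFI27 the matches lay on opposite strands 3 bases apart.

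Libraries held 17815292 to 19466331 reads in genes, and 14192 to 15050 genes had a read. Ribosomal protein genes took 9.35 to 22.2% of the reads of a library, a share that differed between replicates of the same group and also between groups. Of 10 endothelial markers, 8 had a mean of at least 10, while KDR and CLDN5 lay near 0. Of 6 epithelial markers, 4 had a mean of at least 10. The keratins KRT7, KRT8 and KRT18 were high, and EPCAM had medians of 12.0, 12.8 and 12.8 at 48 h, 6 weeks and 12 weeks. The keratin KRT19 had medians of 8.02, 5.23 and 3.19, and CDH1 had a median of 0 at every time. Of 8 leukocyte markers, 3 had a mean of at least 10 (CD68, ITGB2 and LST1), while PTPRC and CD3E had a median of 0 at every time. CD68 had medians of 2696, 1949 and 2585 at 48 h, 6 weeks and 12 weeks, and ITGB2 had 31.3, 38.0 and 51.2. Values below are the deposited read counts after the authors' size-factor scaling per library, called scaled reads here. In bulk RNA, fewer cells expressing a gene and less RNA per cell cannot be told apart.

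The members covered a wide range of levels. Per kilobase of the longest transcript, IFITM3, a membrane protein that blocks fusion of viruses in endosomes, was the highest at each time, with a table mean of 33585 scaled reads per kilobase at 48 h, 28484 at 6 weeks and 42769 at 12 weeks. IFITM2, its close relative, came next at each time, with 14726, 12972 and 12852 scaled reads per kilobase at 48 h, 6 weeks and 12 weeks. ISG15, a ubiquitin-like protein that is conjugated to other proteins, and UBE2L6, its conjugating enzyme, took the next places at each time. IFITM1, IFITM2 and IFITM3 are near copies of each other and IFITM1 and IFITM2 overlap in the annotation, so reads may be divided between them and their values are uncertain. The same holds for USP18, which has a near-identical copy elsewhere in the genome.

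At the other end, 4 members lay below 10 scaled reads on average at 48 h and 6 weeks: RSAD2 (viperin, which makes a chain-terminating nucleotide), MX2 (a dynamin-like GTPase that restricts retroviruses and herpesviruses), XAF1 (a pro-apoptotic protein) and HERC5 (the main ligase for ISG15). Their table means at 6 weeks were 1.49 scaled reads for RSAD2, 2.00 for MX2, 2.98 for XAF1 and 5.17 for HERC5. They were tested only at 12 weeks, where their table means were 11.4 for RSAD2, 30.5 for MX2, 25.5 for XAF1 and 17.1 for HERC5. A single read was worth between 0.783 and 1.85 scaled reads in the libraries at 12 weeks.

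**Figure D1:**
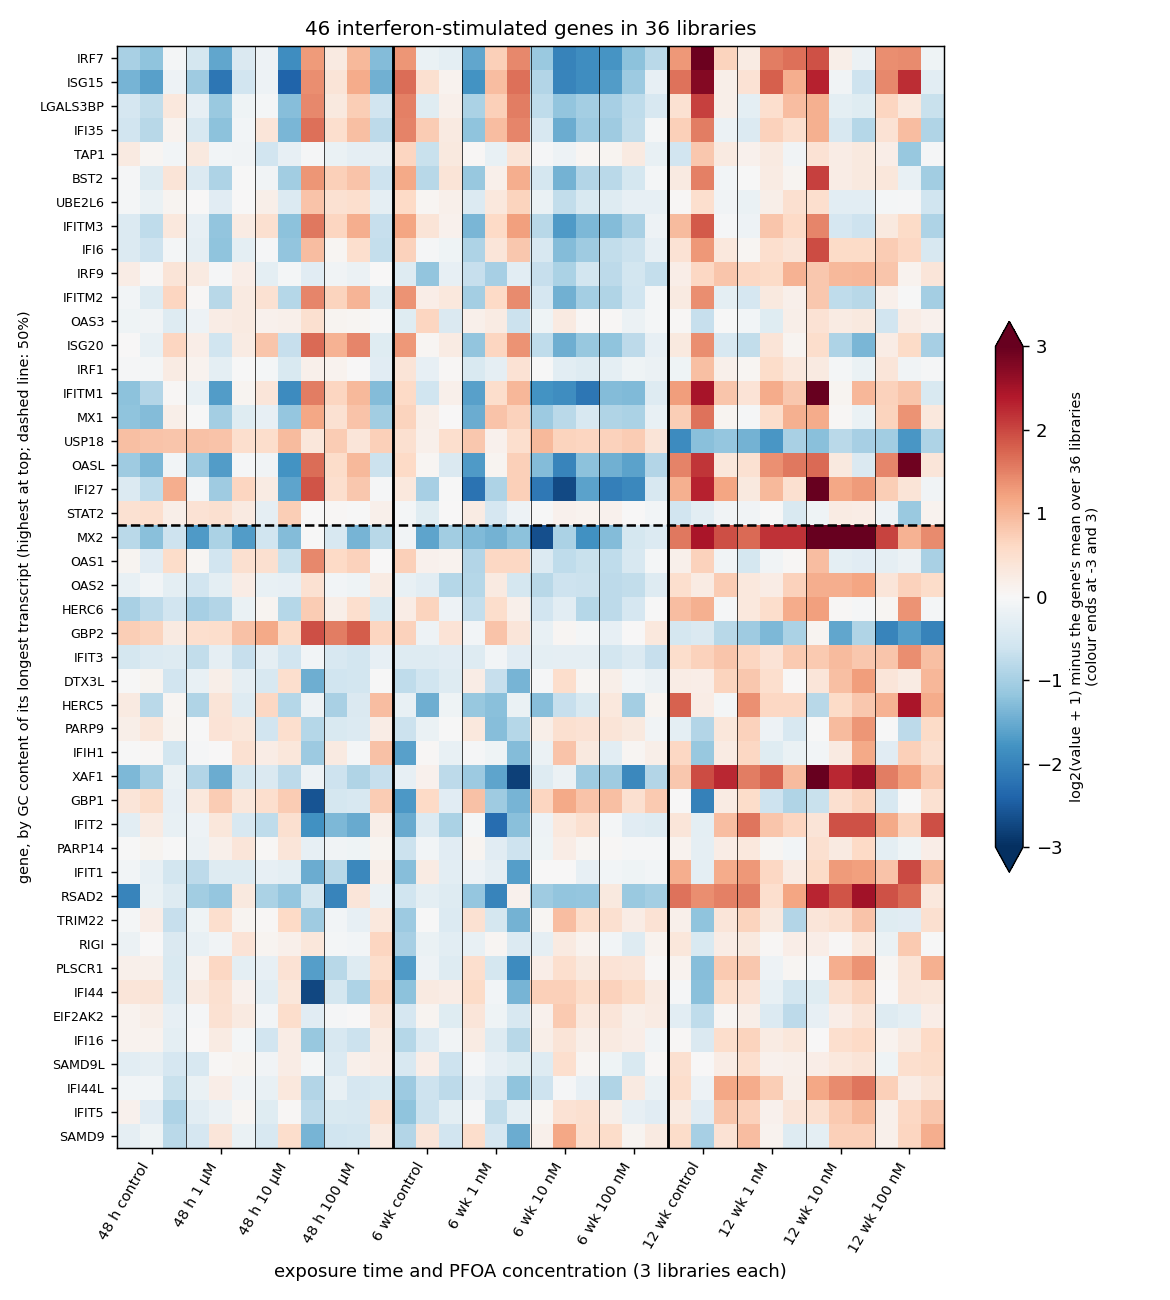
Each row is 1 of the 46 interferon-stimulated genes, ordered by the GC content of its longest transcript, and each column 1 of 36 libraries, grouped by exposure time and PFOA concentration. Colour is log2(value + 1) minus the gene's mean over the 36 libraries. Rows above the dashed line (GC of at least 50%) and rows below it have opposite colours in many libraries, and MX2, XAF1 and RSAD2 are red in the 12-week columns.

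Replicates of a group differed widely, and the members did not move together when they did. The widest spread within a group was that of ISG15 at 10 µM for 48 h, with 1510, 320 and 4436 scaled reads in replicates 1, 2 and 3, a 13.9-fold range. IFITM1 in the same group had 80.5, 16.0 and 183 scaled reads. In these libraries GBP1, a guanylate-binding protein that attacks the vacuoles of intracellular microbes, ran the other way, with 228, 275 and 26.1 scaled reads. The narrowest member was IFIT3, which binds viral RNA together with IFIT1, and its largest range within a group was 1.46-fold.

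The spread went with base composition and the ribosomal share. The 20 members whose longest transcript has a GC content of at least 50% were highest in the library with the group's highest ribosomal share in 163 of 240 cases (20 genes in 12 groups). For the 26 members under 50% that library was the lowest in 157 of 312 cases. ISG15 was highest there in 11 of the 12 groups. DTX3L, a ubiquitin ligase that pairs with PARP9, and PLSCR1, a scramblase that limits viral entry, were lowest there in 11 of the 12. Among the other genes with an overall mean of at least 10, ribosomal protein genes left out, 59.7% of cases at or above 50% GC were highest there and 58.0% of those below were lowest, beside 67.9% and 52.1% for the members that passed the same filter. The part of the ribosomal share in the members' values was not tested.

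At 6 weeks and 10 nM, the members split into groups that went opposite ways. Of 42 tested, 21 had a higher mean and 21 a lower one at 10 nM than in the controls, compared with 51.8% of all genes tested that were higher. No member passed limma after Benjamini-Hochberg adjustment over all 12201 genes, nor did any other gene (0% called; smallest adjusted p 0.0953), while 5365 genes had an unadjusted p under 0.05. Among members, 6 were higher and 14 lower at an unadjusted p under 0.05, beside 21.8% and 22.2% of all genes. The median log2 fold change was −0.022 for the members and 0.053 for all genes. In 12 members every library at 10 nM was above every control and in 15 every one was below, beside 30.6% and 29.8% of all genes.

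Among the effectors and signal proteins with the lowest fold changes at 6 weeks, ISG15 had 920, 428 and 461 scaled reads at 10 nM, against 5362, 2350 and 1808 in the controls. All 3 libraries at 10 nM lay below all 3 controls, by a log2 fold change of −2.32 (SE 0.77, adjusted p 0.0953 by limma). IFITM1 had 17.3, 16.2 and 13.0 scaled reads at 10 nM, against 93.8, 40.5 and 68.8 in the controls. The groups did not overlap either, and the log2 fold change was −1.99. IFITM3 had 12856, 7068 and 9086 scaled reads at 10 nM, against 52539, 30034 and 25247 in the controls. IFITM2 had 7367, 3807 and 5146 scaled reads at 10 nM, against 26303, 11919 and 13022 in the controls. Both were lower in every library at 10 nM than in any control, with log2 fold changes of −1.86 and −1.61.

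IRF7, the transcription factor that amplifies interferon production, had 371, 199 and 220 scaled reads at 10 nM, against 1998, 701 and 652 in the controls. Its log2 fold change was −1.93, with no overlap between the groups. IFI27, a mitochondrial and nuclear-envelope protein widely used as an interferon marker, had 26.8, 17.7 and 39.0 scaled reads at 10 nM, against 152, 60.3 and 119 in the controls. The highest library at 10 nM was below the lowest control, and the log2 fold change was −1.92. IFI35, a regulator of innate signalling, had 620, 310 and 410 scaled reads at 10 nM, against 2441, 1462 and 1041 in the controls. ISG20, an exonuclease that degrades viral RNA, had 1275, 783 and 982 scaled reads at 10 nM, against 5347, 2276 and 2575 in the controls. Neither gene's groups overlapped, and the log2 fold changes were −1.85 for IFI35 and −1.67 for ISG20.

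OASL, which enhances RNA sensing by RIG-I, had 141, 87.0 and 146 scaled reads at 10 nM, against 527, 363 and 255 in the controls. LGALS3BP, a secreted glycoprotein, had 1549, 1154 and 1290 scaled reads at 10 nM, against 7486, 2060 and 2915 in the controls. UBE2L6 had 2579, 1762 and 2150 scaled reads at 10 nM, against 4450, 3087 and 3283 in the controls. For each of these 3 genes the libraries at 10 nM were all below the controls, with log2 fold changes of −1.58, −1.43 and −0.74. OAS1, which makes the second messenger that activates RNase L, had 437, 343 and 367 scaled reads at 10 nM, against 959, 641 and 632 in the controls, and its groups did not overlap.

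On the higher side, GBP1 had the largest fold change. It had 252, 354 and 292 scaled reads at 10 nM, against 48.5, 243 and 126 in the controls. The groups did not overlap, and the log2 fold change was 1.37 (SE 0.61). IFIT2, which binds viral RNA and slows translation, had 67.5, 94.3 and 106 scaled reads at 10 nM, against 25.9, 57.0 and 38.4 in the controls, a log2 fold change of 1.17. IFI16, a nuclear DNA sensor, had 2572, 2974 and 2585 scaled reads at 10 nM, against 1250, 1704 and 2102 in the controls. TRIM22, an antiviral ubiquitin ligase, had 965, 1770 and 1339 scaled reads at 10 nM, against 436, 931 and 701 in the controls. In all 3 of these genes every library at 10 nM exceeded every control. SAMD9, a restriction factor of poxviruses, had 520, 1051 and 656 scaled reads at 10 nM, against 252, 601 and 310 in the controls, which overlap at a log2 fold change of 0.98. IFIT5, PLSCR1 and the RNA-activated kinase EIF2AK2 had log2 fold changes of 1.04, 1.07 and 0.67, also without overlap.

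The direction at 6 weeks went with base composition in the members as in all genes. Of the 20 members with a GC content of at least 50%, 3 were higher and 17 lower at 10 nM, at a median log2 fold change of −1.30, and of all such genes 79.6% were lower, with a median of −0.77. Of the 22 members under 50%, 18 were higher and 4 lower, their median being 0.66, and of all such genes 78.2% were higher, with a median of 0.61. Ribosomal protein genes took 9.35 to 13.4% of reads at 10 nM, against 17.2 to 19.4% in the controls, and the part of that share in these differences was not tested.

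**Figure D2:**
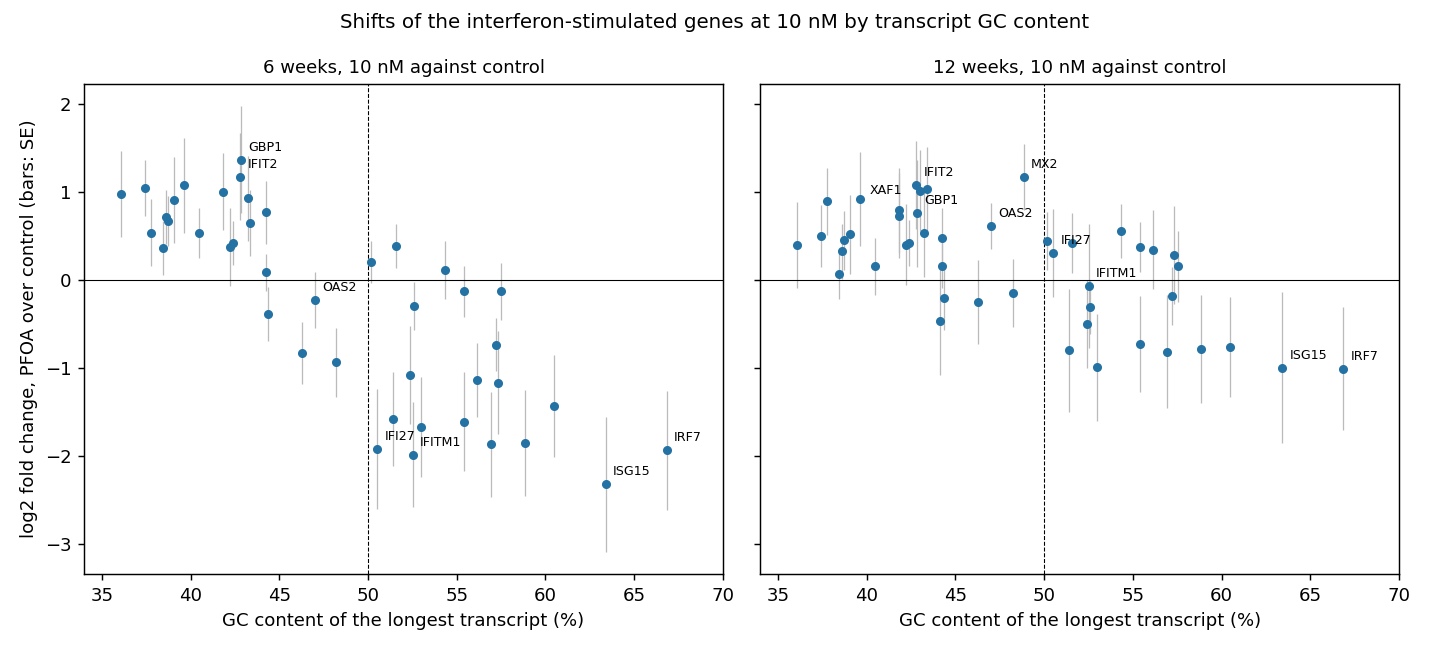
The log2 fold change of each tested interferon-stimulated gene at 10 nM over its control, at 6 weeks (left, 42 genes) and 12 weeks (right, 46 genes), is plotted against the GC content of its longest transcript, with SE bars and a dashed line at 50%. At 6 weeks 18 of 22 genes left of the line are above 0 and 17 of 20 right of it are below 0.

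The calls depended on the way the spread is estimated at 6 weeks and 10 nM. When limma was fitted to the 6 libraries of these groups alone, 17 of 42 members passed, as did 4742 genes (38.9%). With DESeq2 on the recovered reads 12 members and 3706 genes (30.4%) passed, and with edgeR no gene did. With the table's first principal component added to the model, no member had an unadjusted p under 0.05, the fold change of ISG15 was −0.18, and that of GBP1 was −0.20. The scores of that component were 0.50, 0.081 and 0.11 in the controls and −0.13, −0.37 and −0.28 at 10 nM, without overlap. It was taken from these same libraries, so this fit cannot tell the component and the exposure apart. Without control replicate 1, without 10 nM replicate 2 and without 10 nM replicate 3, the members at an unadjusted p under 0.05 numbered 6, 9 and 10.

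The other concentrations at 6 weeks shared those controls. At 100 nM, 19 of 42 members were higher and 23 lower, beside 51.7% of all genes higher, with no adjusted call (0% of genes, 1483 genes at an unadjusted p under 0.05, none by edgeR or DESeq2). At an unadjusted p under 0.05, no member was higher and 6 were lower (IFI35, IFITM3, ISG15, ISG20, OASL and IRF7), beside 5.66% and 6.49% of all genes. There 7 members lay above every control and 13 below every one, beside 22.9% and 24.4% of all genes. ISG15 had 531, 788 and 1431 scaled reads at 100 nM, a log2 fold change of −1.75, and OASL had 127, 113 and 186, a log2 fold change of −1.39. In both genes every library at 100 nM was below every control. At 1 nM, 14 members were higher and 28 lower, beside 48.6% of all genes higher, and the median was −0.066. None was outside the range of the controls, where 0.754% of all genes were above it and 0.557% below. ISG15 at 1 nM had 483, 3180 and 5277 scaled reads, which overlaps the controls. No gene passed limma at 1 nM (31 at an unadjusted p under 0.05), none passed edgeR, and DESeq2 called 2 genes (0.0164%), neither of them a member.

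At 12 weeks and 10 nM more members stood higher than lower. Of 46 tested, 30 had a higher mean and 16 a lower one, compared with 51.1% of all genes higher, and the median log2 fold change was 0.33, compared with 0.016 for all 12304 genes. No member and no gene passed limma (0% called; smallest adjusted p 0.655), 168 genes had an unadjusted p under 0.05, edgeR called none, and DESeq2 called 2 genes, neither a member. At an unadjusted p under 0.05, 4 members were higher (MX2, OAS2, IFI44L and XAF1) and none lower, where 0.78% of all genes were higher and 0.585% lower. RSAD2 reached the mean of 10 only through the 10 nM libraries (its mean over the other 9 was 9.22) and is left out of the next count. Of the 45 members with a mean of at least 10 outside the 10 nM group, 5 had all libraries at 10 nM above all controls (MX2, OAS2, OAS3, IFI44L and PARP14), beside 2.02% of all such genes, and none had them below, beside 1.22%. Among these 45, 29 were higher and 16 lower, at a median of 0.32. That filter was chosen after seeing the data. With 3 libraries against 3, an exact permutation test of a single gene cannot go below p = 0.1.

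MX2 had the largest fold change, with 66.3, 51.3 and 48.7 scaled reads at 10 nM, against 17.8, 33.3 and 23.1 in the controls. The lowest library at 10 nM exceeded the highest control, and the log2 fold change was 1.16 (SE 0.37, unadjusted limma p 0.00879, adjusted p 0.655). In unscaled reads these were 51, 64 and 61 at 10 nM, against 16, 18 and 25 in the controls. XAF1 had 63.7, 32.1 and 40.7 scaled reads at 10 nM, against 11.1, 25.9 and 32.3 in the controls. The lowest library at 10 nM lay just inside the control range, and the log2 fold change was 1.01. Exons of XAF1 share 38.3% of their bases with a gene on the opposite strand, and whether the counting used strand is not given in the sources used here.

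OAS2, the dimeric synthetase of the OAS family, was chosen for description after its values were seen. It had 243, 243 and 260 scaled reads at 10 nM, against 163, 135 and 194 in the controls, a log2 fold change of 0.61 (SE 0.26). Its 3 libraries at 10 nM were close together and above all controls. IFI44L, a gene often used in interferon signatures, had 89.7, 107 and 121 scaled reads at 10 nM, against 56.8, 35.2 and 88.5 in the controls, a log2 fold change of 0.89 with the lowest library at 10 nM just above the highest control. RSAD2, also chosen after its values were seen and tested only because of its level at 10 nM, had 18.2, 13.6 and 21.6 scaled reads at 10 nM, against 11.1, 9.26 and 10.1 in the controls. All its libraries at 10 nM were higher, by a log2 fold change of 0.73, on 14, 17 and 27 reads against 10, 5 and 11.

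Members with wider replicates came next. IFIT2 had 98.8, 287 and 288 scaled reads at 10 nM, against 96.9, 61.1 and 145 in the controls. PARP9, an inactive ADP-ribosyltransferase that works with DTX3L, had 173, 340 and 437 scaled reads at 10 nM, against 143, 94.5 and 220 in the controls. PLSCR1 had 241, 527 and 629 scaled reads at 10 nM, against 267, 102 and 431 in the controls. In these 3 genes replicates 2 and 3 at 10 nM exceeded every control and replicate 1 did not, and the log2 fold changes were 1.08, 1.03 and 0.92. Replicate 1 at 10 nM had a ribosomal share of 22.2%, while replicates 2 and 3 had 12.9% and 12.2%, against 20.8%, 21.4% and 16.4% in the controls.

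The members with the lowest fold changes at 12 weeks showed the reverse arrangement of replicates. ISG15 had 8332, 1564 and 1097 scaled reads at 10 nM, against 5191, 11448 and 1903 in the controls. IRF7 had 3029, 904 and 709 scaled reads at 10 nM, against 1984, 6220 and 1286 in the controls. ISG20 had 3142, 1147 and 834 scaled reads at 10 nM, against 2660, 5731 and 1550 in the controls. In each, replicate 1 at 10 nM lay within the range of the controls and replicates 2 and 3 below it, with log2 fold changes of −0.99, −1.01 and −0.99. IFITM3 followed with 62993, 16106 and 14911 scaled reads at 10 nM, against 44122, 82615 and 22497 in the controls, a log2 fold change of −0.81. None of these reached an unadjusted p under 0.05.

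By base composition, the 26 members under 50% GC had 22 higher and 4 lower at 12 weeks and 10 nM, with a median log2 fold change of 0.49, where all such genes had 72.5% higher and a median of 0.27. The 20 members of at least 50% had 8 higher and 12 lower, with a median of −0.25, where all such genes had 74.4% lower and a median of −0.38. MX2 has a GC content of 48.8% and was highest in the library with the highest ribosomal share in 3 of the 4 groups at 12 weeks, the only time at which it was tested. That rank is weak before scaling. At 1 nM replicates 2 and 3 were level with 24 reads each. At 10 nM the library so ranked had 51 reads beside 64 and 61, and in the controls 18 beside 16 and 25. OAS2, at 47.0%, was above every control in all 3 libraries at 10 nM, whose ribosomal shares ran between 12.2 and 22.2%.

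The list's median at 12 weeks and 10 nM depended on single libraries. It was 0.13 without control replicate 2 and 0.21 without control replicate 1, and 0.17 with the first principal component in the model. The members at an unadjusted p under 0.05 numbered 11 without 10 nM replicate 1, 8 without control replicate 3, 2 without control replicate 2 or 10 nM replicate 2, and 1 without control replicate 1 or 10 nM replicate 3. MX2 kept a log2 fold change between 0.93 and 1.41 in every alternative that tested it, while XAF1 was at 0.58 without control replicate 1. PLSCR1 was at 0.34 without control replicate 2 and at 0.17 with that component, which also brought IFIT2 to 0.40 and PARP9 to 0.42.

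**Figure D3:**
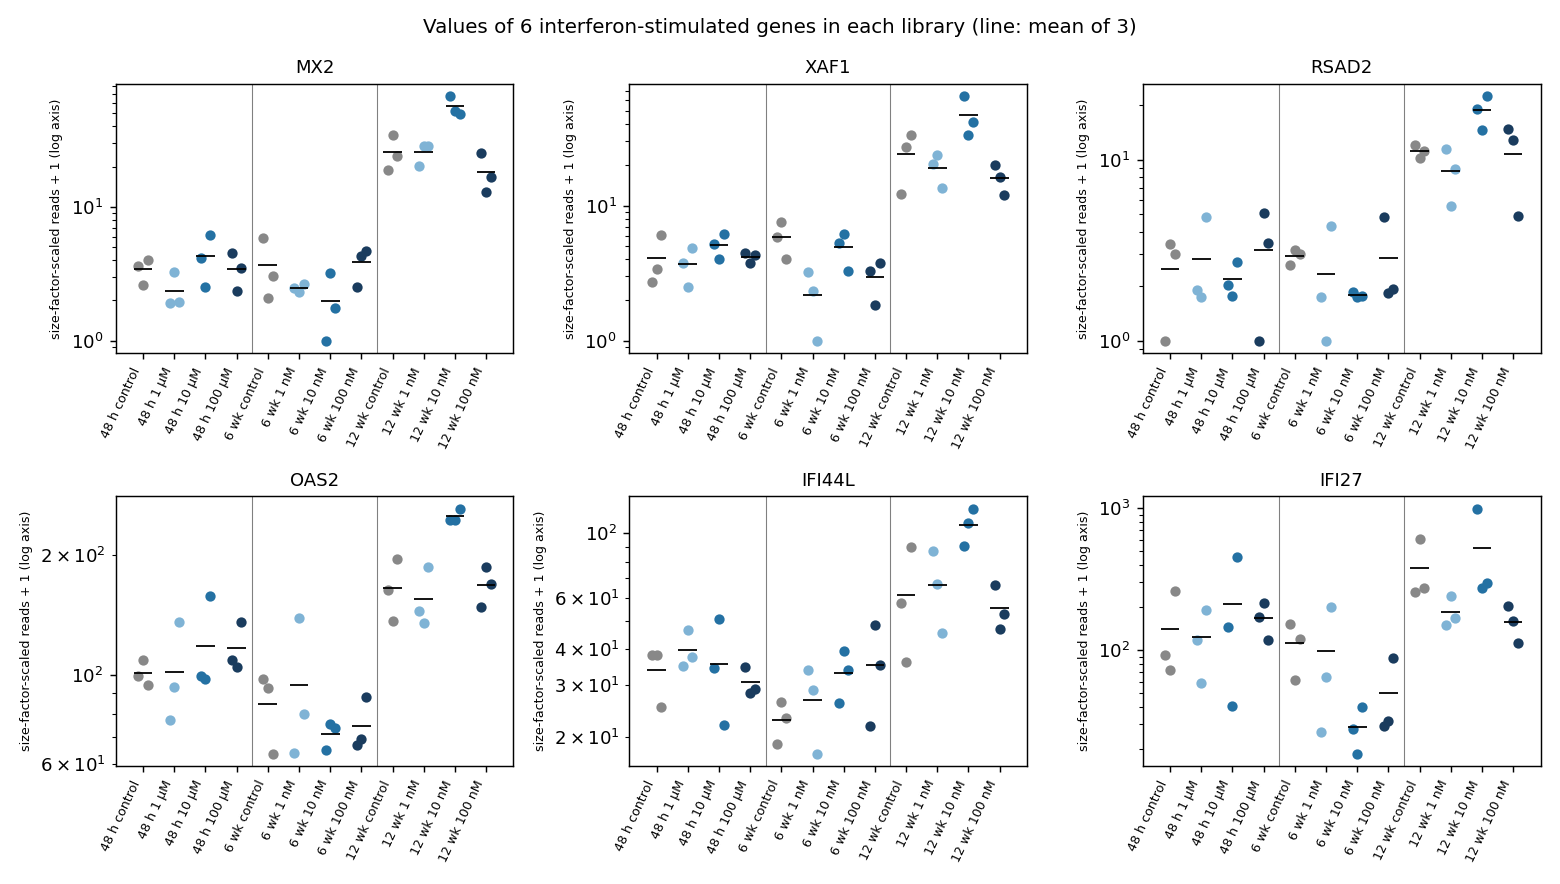
Scaled reads plus 1 on a log axis are shown for 6 interferon-stimulated genes in every library, with the mean of 3 as a line, in the 12 groups in the order of exposure time and concentration. In the 12-week panels MX2, OAS2, RSAD2 and IFI44L at 10 nM lie above the controls, while IFI27 at 6 weeks and 10 nM lies below them.

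At the concentrations on either side, which shared the 12-week controls, MX2 and OAS2 were not above the control range. MX2 had 19.1, 27.3 and 27.3 scaled reads at 1 nM and 24.3, 11.8 and 15.7 at 100 nM, both within or below the control range. OAS2 had 144, 134 and 185 scaled reads at 1 nM and 147, 185 and 168 at 100 nM, which overlaps the controls. XAF1 had log2 fold changes of −0.25 at 1 nM and −0.49 at 100 nM, and IFI44L of 0.17 and −0.060. The concentrations were not tested against each other.

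Over the list, 24 of 46 members were higher and 22 lower at 1 nM (median 0.0077), and 21 were higher and 25 lower at 100 nM (median −0.054), beside 50.2% of all genes higher at each. No gene passed limma at either (0% called; 24 genes at 1 nM and 287 at 100 nM at an unadjusted p under 0.05), edgeR called none, and DESeq2 called 0 and 1 gene, no member. At 1 nM 2 members lay below every control (IFI27 and GBP2, another guanylate-binding protein), beside 0.805% of all genes, and at 100 nM 3 did (these and OAS1), beside 2.57%. OAS1 had 489, 521 and 299 scaled reads at 100 nM, against 649, 952 and 541 in the controls. IFI27 had 150, 237 and 168 scaled reads at 1 nM and 202, 158 and 112 at 100 nM, against 254, 606 and 275 in the controls. GBP2 had 137, 112 and 149 scaled reads at 1 nM and 73.0, 90.9 and 72.0 at 100 nM, against 202, 215 and 161 in the controls. Its log2 fold change was −0.53 at 1 nM and −1.28 at 100 nM (unadjusted limma p 0.00497, adjusted p 0.751). IFIT3 lay above every control at 100 nM, with 385, 564 and 400 scaled reads against 310, 350 and 385, where 2.07% of all genes did. The margin was small, 385.35 in 100 nM replicate 1 against 384.55 in control replicate 3, where 1 read of that 100 nM library was worth 1.06 scaled reads.

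The shift at 10 nM was then compared between 12 and 6 weeks, as the log2 fold change at 12 weeks minus that at 6 weeks, each against its own controls. For 28 of 42 members the difference was above 0 and for 14 below, compared with 49.6% of all 12037 genes above 0, and the median was 0.32 for the members and −0.0072 for all genes. No gene passed limma (0% called; smallest adjusted p 0.906; 42 genes at an unadjusted p under 0.05), edgeR called none, and DESeq2 called 1 gene that is not a member. At an unadjusted p under 0.05, 3 members were above 0 (IFI27, IFI6 and OAS2), where 0.183% of all genes were, and none was below, where 0.166% were. That count was 0 without control replicate 1 at 6 weeks or control replicate 1 at 12 weeks, and 1 without 10 nM replicate 2 at 6 weeks or 10 nM replicate 1 at 12 weeks. It was 5 without control replicate 2 at 6 weeks, and 5 by edgeR or DESeq2.

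IFI27 had the largest difference, 2.23 on the log2 scale (SE 0.90, unadjusted limma p 0.0223, adjusted p 0.906). At 12 weeks it had 990, 272 and 296 scaled reads at 10 nM, against 254, 606 and 275 in the controls, which overlap, whereas at 6 weeks all libraries at 10 nM were below the controls. Without 10 nM replicate 1, its shift at 12 weeks was −0.29 in place of 0.31. IFITM1 followed with a difference of 1.91, from 609, 65.7 and 125 scaled reads at 12 weeks and 10 nM, against 150, 352 and 111 in the controls. Those values overlap, and 1 library at 10 nM stood above all the others.

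IFI6, which limits apoptosis and flavivirus replication, differed by 1.48 (unadjusted limma p 0.032). It had 2395, 914 and 916 scaled reads at 12 weeks and 10 nM, against 831, 1532 and 770 in the controls. At 6 weeks it had 442, 248 and 293 scaled reads at 10 nM, against 1001, 606 and 562 in the controls. The groups were apart at 6 weeks, with 10 nM lower, and overlapped at 12 weeks. BST2 (tetherin), which holds budding virions at the cell surface, differed by 1.45, with 272, 76.1 and 80.7 scaled reads at 12 weeks and 10 nM, against 79.1, 189 and 61.8 in the controls. At 6 weeks BST2 had 45.0, 23.6 and 35.2 scaled reads at 10 nM, against 144, 36.2 and 84.9 in the controls, and these overlap too. ISG15 differed by 1.33 (SE 1.25), and OAS2 by 0.84 (SE 0.37).

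Taking signs alone, 21 members were higher at 10 nM at both times, 15 were lower at both, 6 were lower at 6 weeks and higher at 12 weeks (BST2, IFI27, IFI6, IRF9, OAS2 and TAP1), and none was higher at 6 weeks and lower at 12 weeks. These sign patterns were not counted over all genes, so whether they are particular to the members cannot be read from them. Of the members with at least 50% GC, 19 of 20 had a difference above 0, where 82.0% of all such genes did. Of those under 50%, 9 of 22 had a difference above 0, where 22.6% of all such genes did. At 1 nM and at 100 nM the same difference was above 0 for 20 of 42 members each, beside 47.8% and 49% of all genes, with medians of −0.018 and −0.032 and no member at an unadjusted p under 0.05. By limma 0% of genes were called at either concentration (25 and 68 genes at an unadjusted p under 0.05), edgeR called none, and DESeq2 called 2 and 1 genes, no member.

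**Figure D4:**
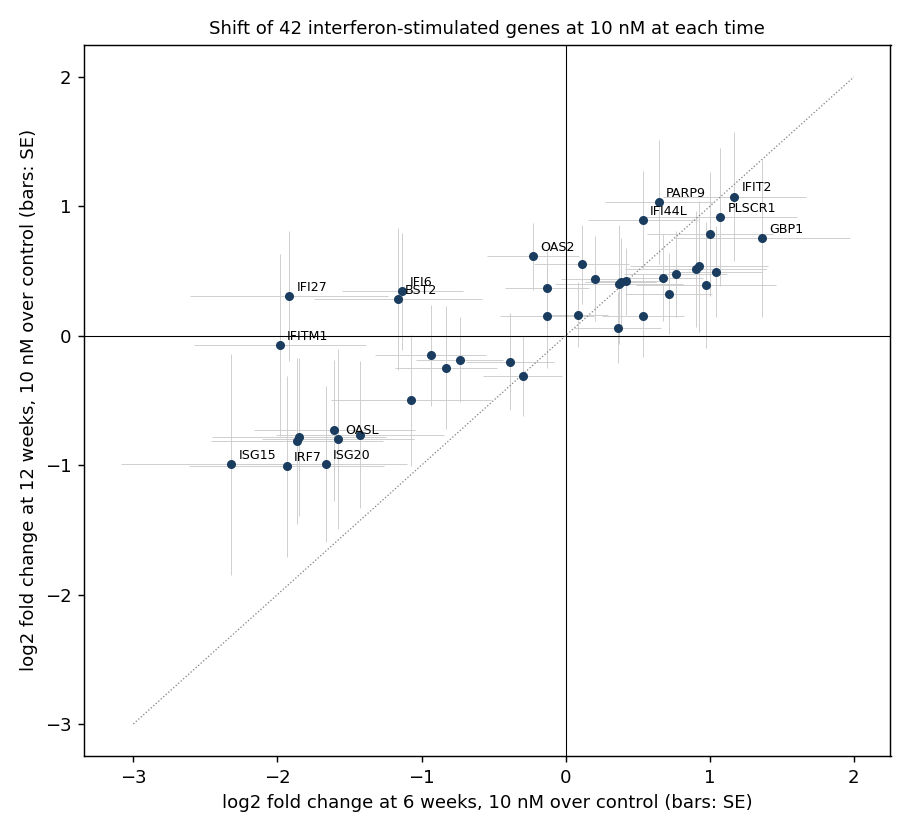
The log2 fold change of 42 interferon-stimulated genes at 10 nM over control is plotted for 12 weeks against that for 6 weeks, with SE bars and a dotted line of equal shifts. ISG15, IRF7 and ISG20 are below 0 on both axes, IFIT2, GBP1 and PARP9 above 0 on both, and IFI27 is at −1.92 at 6 weeks and 0.31 at 12 weeks.

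At 48 h the members differed little at 1 µM and more at the higher concentrations, all against the same controls. At 1 µM, 21 of 42 members were higher and 21 lower, beside 48.5% of all genes higher, and the median was 0.0088. None was outside the control range, where 1.14% of all genes were above it and 1.17% below. At 10 µM, 28 were higher and 14 lower, beside 51.5% of all genes higher, with a median of 0.10 where all genes had 0.015. At 100 µM, 27 were higher and 15 lower, beside 53.7% of all genes higher, with a median of 0.24 where all genes had 0.034. The median at 100 µM was 0.11 with the first principal component in the model, 0.11 without 100 µM replicate 3 and 0.15 without control replicate 3. At 10 µM it was −0.065 without replicate 3 and 0.27 without replicate 2.

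No gene passed limma at any of these concentrations (0% called; 6, 345 and 244 genes at an unadjusted p under 0.05 at 1, 10 and 100 µM), edgeR called none, and DESeq2 called 1 (0.00817%), 1 (0.00817%) and 0, no member. At an unadjusted p under 0.05 there was no member at 1 µM (0.0409% of all genes higher, 0.00817% lower) and none at 100 µM (0.703% higher, 1.29% lower). At 10 µM there was 1 on the higher side, OAS3 (0.883% of all genes), and 1 on the lower, IRF9 (1.94%). OAS3, the OAS enzyme most active on long double-stranded RNA, was above every control at both higher concentrations. It had 297, 303 and 384 scaled reads at 10 µM and 289, 284 and 271 at 100 µM, against 251, 255 and 210 in the controls. IRF9, the DNA-binding subunit of the complex that binds that element, was below every control at both. It had 316, 373 and 309 scaled reads at 10 µM and 362, 344 and 391 at 100 µM, against 455, 398 and 510 in the controls. At 10 µM, 3 members in all were above the controls and 1 below, beside 2.67% and 3.52% of all genes. At 100 µM, 2 were above and 4 below, beside 4.32% and 6.46%. Exons of IRF9 share 48.4% of their bases with another annotated gene on the same strand. OAS3 and IRF9 were chosen for description after their values were seen.

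The abundant members at 48 h overlapped between groups. IFITM3 had 36030, 48754 and 14163 scaled reads at 100 µM, against 17217, 13507 and 28735 in the controls. ISG15 had 2192, 3661 and 618 scaled reads at 100 µM, against 640, 544 and 1504 in the controls. UBE2L6 had 4090, 4164 and 2453 scaled reads at 100 µM, against 2850, 2563 and 3123 in the controls. In each, replicates 1 and 2 at 100 µM were the highest of the 6 libraries and replicate 3 was below the middle control. Those replicates had ribosomal shares of 19.7%, 19.4% and 13.9%, and the part of that share was not tested. STAT2, the signal transducer of type I interferon, was below every control at 100 µM, with 520, 501 and 566 scaled reads against 694, 723 and 571, a log2 fold change of −0.32.

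Across the 12 groups, the levels of a few members at 12 weeks lay outside the range of all earlier libraries. The times differ in culture, harvest and concentration range and were not tested against each other. Among the 42 members with a mean of at least 10 in the 24 libraries at 48 h and 6 weeks, a filter chosen after seeing the data, IFIT3 was above all of those in all 12 libraries at 12 weeks, beside 1.01% of 12236 genes. MX2 and XAF1, which reach an overall mean of 10 through the 12-week libraries alone, lay above all earlier libraries as well and are given as values only. The median of MX2 was 2.36 scaled reads at 48 h, 1.59 at 6 weeks and 25.8 at 12 weeks. That of XAF1 was 3.18, 2.54 and 20.9, and that of IFIT3 was 159, 167 and 374. In the controls alone, a comparison also chosen after seeing the data, 4 of 42 members with that mean in the earlier controls were above at 12 weeks (IFIT3, IFITM1, OAS2 and DTX3L), beside 3.91% of all genes.

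Other members with higher medians at 12 weeks included IRF7 and IRF9, but not STAT2. STAT2 had medians of 594 scaled reads at 48 h, 510 at 6 weeks and 466 at 12 weeks. IRF7 had a median of 576 scaled reads at 48 h, 414 at 6 weeks and 2042 at 12 weeks. IRF9 had 385, 241 and 642, and OASL had 270, 166 and 932. RSAD2 had medians of 1.39, 0.90 and 10.8 scaled reads. Between 6 and 12 weeks, the mean log2 value was higher at 12 weeks for 36 of the 42 members with a mean of at least 10 at the earlier times and lower for 6, with a median difference of 0.41, where all genes had a median of −0.0048 and 6066 of 12236 were higher.

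USP18, the protease that removes ISG15 and holds back the interferon receptor, went the other way. It was below all 24 earlier libraries in all 12 libraries at 12 weeks, as 1 of 44 members with an overall mean of at least 10, beside 0.96% of all genes. Its medians were 370 scaled reads at 48 h, 317 at 6 weeks and 91.5 at 12 weeks. GBP2 had medians of 472, 298 and 143 scaled reads. In the controls alone, USP18 and GBP2 were the 2 of 44 members that lay below at 12 weeks, a share near the 4.14% of all genes. At 10 nM USP18 had 415, 338 and 331 scaled reads at 6 weeks, against 294, 235 and 303 in the controls. It had 88.4, 121 and 106 scaled reads at 12 weeks and 10 nM, against 56.8, 88.9 and 94.1 in the controls. Every library at 10 nM was above every control at 6 weeks and 2 of 3 were at 12 weeks, with log2 fold changes of 0.38 (SE 0.25) and 0.41 (SE 0.34).

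Other genes of the pathway were read from lists made for the purpose. Of 11 interferon ligands, IFNE alone could be tested, and IFNB1 and IFNL1 were at 0 in the median library at 48 h and 6 weeks. At 12 weeks IFNB1 had a median of 1.85 scaled reads and a highest value of 5.68, and IFNL1 a median of 2.25 and a highest value of 11.7. These are counts of a few reads per library, and in IFNLR1, the receptor chain for IFNL1, the median was 0 at every time. CXCL11, an interferon-induced chemokine, had medians of 0.79, 0.42 and 6.75 scaled reads at 48 h, 6 weeks and 12 weeks.

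No gene of any list passed limma in any comparison. At 10 nM, 51.8% of all genes tested were higher than in the controls at 6 weeks and 51.1% at 12 weeks. Directions at 10 nM went with GC content over all genes, and the lists below were not split by it. At 6 weeks and 10 nM, 11 of 15 receptor and JAK-STAT genes were higher, with a median of 0.50, and 3 of 16 antigen presentation genes were, with a median of −0.80. The immunoproteasome subunit PSMB9 had a log2 fold change of −1.27 there and the class I gene HLA-E had −1.26, while the kinase JAK1 was at 1.16. Genes of the same lists went the other way, with ERAP1 of the antigen presentation list at 0.91 and the kinase TYK2 at −0.99. At 12 weeks and 10 nM the same lists had 11 of 15 higher with a median of 0.38, and 4 of 16 higher with a median of −0.31. Nucleic acid sensors had 7 of 13 higher at 6 weeks, with a median of 0.63, and 10 of 14 at 12 weeks, with a median of 0.30. Of further interferon-induced genes outside the 46, 9 of 27 were higher at 6 weeks, with a median of −0.23, and 11 of 28 at 12 weeks, with a median of −0.10. The members had medians of −0.022 at 6 weeks and 0.33 at 12 weeks (0.32 without RSAD2). The further genes and the members were not tested against each other.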

How the data were processed

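Per the labels, 150 bp RNA libraries were made from total RNA with integrity numbers above 9. HISAT, Bowtie2, DESeq2 and the build GRCh38.p14 are named in the submitters' processing notes; which counter was used, and whether by strand, is not given in the sources used here. The deposited values, 1 table per exposure time, are a signal: counts of reads scaled by the authors with 1 size factor per library. Dividing by the smallest step in a library gave whole reads (100% of values to within 0.01); control replicate 3 at 6 weeks had a step of 1.01. At 6 weeks 1 unnamed entry was dropped. The size factors were nearer to factors from all 36 libraries (log2 ratio with an SD of 0.0038 to 0.0046) than to those from a single table (0.0075 to 0.011), so levels are shown side by side across tables, while tests stayed within a table.

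The test was limma 3.58.1 (R 4.3.3, trended prior) on log2(signal + 1), which understates the change of low genes, fitted per table to its 12 libraries, with a mean for each of the 4 groups. A table mean of at least 10 was required (12233, 12201 and 12304 at 48 h, 6 weeks and 12 weeks), with two-sided p-values, Benjamini-Hochberg adjustment over all of them and a threshold of 0.05. Differences of shifts used 24 libraries and 12037 genes. Replicates are called biological in the labels, with no word on separate cultures, so p-values measure the spread between these samples. Alternatives were pseudocounts of 0.1 and 10, no filter, a mean of at least 50, quantile normalization, a replicate block, only the groups compared, a principal component, each library left out, edgeR 4.0.16 and DESeq2 1.42.0 on recovered reads. Same-numbered replicates deviated together (every correlation over 0.1) in 1 of 9 comparisons, 6 weeks at 10 nM, so the numbers were not taken as pairs in general. GC content and exon overlap come from GENCODE release 29, and promoters from RefSeq on GRCh38.p14.

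Any of the 46 members and the 95 genes of 5 pathway lists could be named, except 1 pathway gene that is counted in its list but not reported here by itself. Values per library are given for some of the 10 members highest in each table. They are also given for the 10 with the largest fold changes at 10 nM at each long exposure and the 5 with the largest differences between them. Some other members, among them GBP1, SAMD9, GBP2, IFIT3, STAT2 and USP18, are given outside these rules and were picked with the results known. Members and lists were chosen with earlier results of these data known. The code was tested on simulated data.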

Additional observations from a re-analysis of the deposited data

How the results depend on the processing

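In all 12 comparisons the count of members passing limma stayed 0 in every alternative, except at 6 weeks and 10 nM, where it was 17 (4742 of all genes) with the groups compared alone and 12 (3706 genes) with DESeq2. DESeq2 called 1 gene at 1 µM, 1 at 10 µM, 2 at 1 nM for 6 weeks, 2 at 10 nM and 1 at 100 nM for 12 weeks, and 2, 1 and 1 for the differences of shifts at 1, 10 and 100 nM, no member among them; without replicate 1 at 1 nM for 6 weeks limma called 1 gene. The cause was not tested.

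The members' median log2 fold change moved by more than the replicate SD as follows. At 100 µM it was 0.18 with quantile normalization and 0.11 with the covariate. At 6 weeks and 1 nM it was 0.027 with edgeR, where edgeR moved the median of all genes to 0.065. At 6 weeks and 10 nM the members' median was −0.17 with no filter, 0.085 with a mean of at least 50, −0.18 with quantile normalization and −0.090 with DESeq2. At 12 weeks and 10 nM it was 0.17 with the covariate. The difference at 1 nM was 0.047 with quantile normalization, −0.11 with edgeR and −0.13 with DESeq2, where edgeR and DESeq2 moved the median of all genes to −0.13 and −0.14. DESeq2 moved it to 0.10 at 10 µM.

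With 1 library left out, the members' median ranged as follows: −0.031 to 0.094, −0.065 to 0.27 and 0.11 to 0.27 at 1, 10 and 100 µM; −0.12 to 0.049, −0.053 to 0.015 and −0.14 to −0.041 at 1, 10 and 100 nM for 6 weeks; −0.078 to 0.029, 0.13 to 0.38 and −0.085 to 0.013 for 12 weeks; and −0.065 to 0.067, 0.21 to 0.36 and −0.060 to 0.049 for the differences. All-gene calls ranged between 0 and 1 at 1 nM for 6 weeks.

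Among single members, GBP1 at 6 weeks and 10 nM reversed to −0.20 with the covariate, whose scores do not overlap between these groups. IFI27 at 12 weeks and 10 nM reversed to −0.29 without 10 nM replicate 1, where leaving out any single library gave −0.29 to 0.70. The replicate block left 0 calls everywhere and is given because the labels share numbers: the median at 12 weeks and 10 nM with the replicate block was 0.33, as without it. Without adjustment, 2 members at 12 weeks and 14 at 6 weeks had a p under 0.05 at 10 nM with the block. Low members (RSAD2, XAF1, MX2, HERC5) rest on 3 to 64 reads per library at 12 weeks, which limits how small a difference could be seen. With a mean of at least 10 over all 36 libraries in place of the earlier 24, the members above all earlier libraries at 12 weeks numbered 3 in place of 1, as MX2 and XAF1 then passed.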
